A study of Mus musculus with 10 samples.

Results

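The fatty acid hydroxylases of the Cyp4 family were followed in mouse hepatocytes, the main cells of the liver, across the lobule and at 4 times of day. They were chosen by name: the rows cyp4a10, cyp4a12a, cyp4a12b, cyp4a14, cyp4a31, cyp4a32, cyp4f13, cyp4f14, cyp4f15 and cyp4v3, which are 10 of 14812 gene entries. All 10 had a row in every library. Male C57BL/6 mice, 3 months old and given chow freely, were the source of the 10 single-hepatocyte libraries, and the labels name no other treatment or genetic change. Zeitgeber time (ZT) counts hours from lights on by convention, and there were 3 libraries at ZT0 (A, B and C), 2 at ZT6 (A and B), 3 at ZT12 (A, B and C) and 2 at ZT18 (A and B). The number of mice behind a library is not given in the labels, so the p-values below measure the spread between libraries, which may be technical in part.

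Cyp4 enzymes are cytochrome P450 proteins of the endoplasmic reticulum that put a hydroxyl group on the last carbon of a fatty acid or eicosanoid, the first step of omega-oxidation. Electrons reach them from P450 reductase (Por) and cytochrome b5, and alcohol and aldehyde dehydrogenases then turn the product into a dicarboxylic acid that peroxisomes shorten. Cyp4a10, Cyp4a14 and Cyp4a31 are classic targets of the fatty acid receptor PPAR-alpha, whereas Cyp4a12a and Cyp4a12b are known as male-biased genes under androgen and growth hormone control. The Cyp4f enzymes act on leukotrienes and long-chain fatty acids, and Cyp4v3, the mouse counterpart of human CYP4V2, hydroxylates medium-chain fatty acids.

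How alike these genes are limits how well their reads can be told apart, so the coding sequence around the cysteine that holds the haem iron is shown for each distinct form. Sequences were read from the GENCODE M21 transcripts (build GRCm38), run 5′ to 3′ over 60 bases, and capitals mark bases that differ from cyp4a10 in the Cyp4a genes and from cyp4f14 in the others.
cyp4a10: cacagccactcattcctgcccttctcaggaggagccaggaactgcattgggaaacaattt
cyp4a12a: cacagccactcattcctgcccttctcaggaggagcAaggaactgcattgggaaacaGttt
cyp4a14: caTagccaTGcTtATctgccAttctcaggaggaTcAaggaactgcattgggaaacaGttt
cyp4f14: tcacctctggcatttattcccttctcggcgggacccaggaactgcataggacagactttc
cyp4f13: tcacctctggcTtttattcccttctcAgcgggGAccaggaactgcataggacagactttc
cyp4f15: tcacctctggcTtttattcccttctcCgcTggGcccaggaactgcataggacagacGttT
cyp4v3: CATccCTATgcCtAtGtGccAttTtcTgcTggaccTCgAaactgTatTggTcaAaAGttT
Cyp4a31 and Cyp4a32 matched Cyp4a10 at every one of these bases, and Cyp4a12b matched Cyp4a12a. The stretch of Cyp4a14 differed from that of Cyp4a10 at 10 bases, and that of Cyp4v3 from Cyp4f14 at 25.

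All 6 Cyp4a genes lie in a cluster on chromosome 4 of GRCm38, all are annotated as protein-coding, and the 3 Cyp4f genes lie on chromosome 17. Cyp4a12a spans chr4:115299046-115332815 and Cyp4a12b chr4:115411624-115439034, both on the plus strand. Cyp4a14 is at chr4:115486200-115496142 on the minus strand and Cyp4a10 at chr4:115518264-115533649 on the plus strand. Over the whole coding sequence, Cyp4a12a and Cyp4a12b were 98.5% identical, Cyp4a10 and Cyp4a32 97.2%, Cyp4a10 and Cyp4a31 96.6%, and Cyp4a10 and Cyp4a14 75.2%. The library chemistry reads the 3′ end of transcripts, so the last 500 bases of each annotated transcript were searched for windows of 90 bases found unchanged in another annotated gene. Cyp4a12a and Cyp4a12b shared 30.2% of their 411 windows with each other. Cyp4a32, whose annotated transcript ends at the stop codon, shared 32.1% with Cyp4a31 and 31.6% with Cyp4a10. The other 7 members had 0 shared windows. How the authors counted reads that match several genes is not given in the sources used here, so the split between Cyp4a12a and Cyp4a12b and the values of Cyp4a32 are uncertain.

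Values are counts of unique molecular identifiers (UMIs), each standing for 1 captured transcript molecule, and were scaled to the library's total as CPM, the usual per-library unit. Because a molecule is counted once at its 3′ end, CPM does not rise with transcript length. The libraries held 710 to 2860 cells and 1454623 to 7144803 UMIs, and the median cell held 1588 to 2662 UMIs. Hepatocyte markers summed to 49236 to 98628 CPM in a library, with all 8 detected. The sums for endothelial cells, macrophages, lymphocytes, neutrophils and stellate cells were each at most 16.7 CPM. However, 2 of 7 endothelial and 4 of 8 macrophage markers had 0 UMIs in all libraries. Of 7 lymphocyte markers 6 had a row, and 4 of these had 0 UMIs. The sources used here do not say why, so these low sums do not measure how pure the hepatocytes were. Of 4 listed markers of the kidney proximal tubule, a tissue that also expresses Cyp4a genes, 1 was analysed here, Lrp2 (0.523 CPM on average). The cholangiocyte list was led by Spp1 and summed to 5.80 to 118 CPM. Both ZT18 libraries stood apart from the other 8: the median log2(CPM + 1) of 43 annotated pseudogene entries was 5.22 and 5.36 there and 2.78 to 3.46 elsewhere. That of 21 entries for major urinary proteins (Mup) was 7.50 and 7.42 there and 3.27 to 6.54 elsewhere. Mitochondrial entries took 21.5% and 19.3% of UMIs at ZT18, 15.9% and 16.0% at ZT6, and 12.9% to 24.3% over the other 8 libraries. The ZT18 libraries also carry an index plate column (4) that no other time has, so time and index column cannot be told apart for them. Cell barcodes are not in the files' headers, so shared barcodes were not counted.

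Averaged over the 10 libraries, Cyp4v3 was the most abundant member at 481 ± 91.3 CPM (SD, n = 10). It was followed by Cyp4a12a at 288 ± 138, Cyp4f14 at 193 ± 44.7, Cyp4a10 at 189 ± 97.9 and Cyp4a14 at 110.04 ± 86.03 CPM. Cyp4a12b had 84.4 ± 53.6, Cyp4f15 56.3 ± 10.5, Cyp4f13 26.02 ± 5.72 and Cyp4a31 5.00 ± 3.74 CPM. In this order, Cyp4a12a, Cyp4f14, Cyp4a10, Cyp4a14 and Cyp4a12b each differed from the next by less than the larger of their SDs, whereas Cyp4v3 and Cyp4a12a, Cyp4f15 and Cyp4f13, and Cyp4f13 and Cyp4a31 were separated by more than that. Cyp4a32 had 18 UMIs in all libraries together, with 0 to 4 in each, and was left out of the tests because it was under the filter of a mean of 3 CPM. The members with the steadiest levels were Cyp4v3 and Cyp4f15, whose highest library was 1.67 and 1.73 times the lowest. Cyp4a14 varied most among members detected in every library, 22.2-fold between ZT12B and ZT18A.

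The first comparison asked whether the level of these genes in all hepatocytes of a library changes with the time of day. The lowest values of 3 Cyp4a genes were in the night libraries: Cyp4a10, Cyp4a14 and Cyp4a31 were lower in both ZT18 libraries than in each of the other 8. This pattern was seen in 7.44% of all genes, and Cyp4a31 had only 7 and 3 UMIs in ZT18A and ZT18B. Of these 3 Cyp4a genes, Cyp4a10 passed the test between ZT18 and ZT6, where it was 3.69-fold lower. No member passed the test for a 24-h rhythm, and none passed the test between ZT12 and ZT0 as fitted without a block. With the index plate column as a block Cyp4f14 passed the latter, and in cells with at least 3000 UMIs Cyp4a31 did, as given below.

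Cyp4a10, an omega-hydroxylase of medium- and long-chain fatty acids, measured 81.7, 237 and 223 CPM in ZT0A, B and C, 144 and 302 in ZT6A and B, 201, 289 and 298 in ZT12A, B and C, and 52.2 and 63.3 in ZT18A and B. The ZT18 values did not overlap those of any other time, while ZT0, ZT6 and ZT12 overlapped each other. Its log2 fold change of ZT18 over ZT6 was -1.89 ± 0.45 (SE; edgeR quasi-likelihood adjusted p = 0.0338, 7.2e-04 to 0.335 over the alternatives). The call was lost without ZT18A (adjusted p = 0.254), without ZT18B (0.178) or without ZT6B (0.335, log2 fold change -1.19). Cyp4a14, its neighbour in the cluster, measured 36.8, 180 and 101 CPM at ZT0, 69.5 and 167 at ZT6, 83.9, 293 and 134 at ZT12, and 13.2 and 23.4 at ZT18. Again the ZT18 values lay below all others, and ZT12B was the highest library. The log2 fold change of Cyp4a14 between ZT18 and ZT6 was -2.61 ± 0.72 (edgeR adjusted p = 0.0602, 2.5e-04 to 0.407 over the alternatives), which did not pass the threshold of 0.05. It passed in 6 alternatives: with library size alone (edgeR adjusted p = 0.0485), no filter on low counts (9.4e-04), the letter as replicate block (2.5e-04), and without ZT0A (0.028), ZT0B (0.0408) or ZT12B (0.0389). Without either library of ZT18 or of ZT6 it did not pass. Cyp4a31 was counted with 3 to 101 UMIs per library. It measured 3.32, 4.76 and 3.21 CPM at ZT0, 3.45 and 6.95 at ZT6, 4.12, 14.1 and 7.03 at ZT12, and 2.20 and 0.808 at ZT18 (log2 fold change of ZT18 over ZT6 -1.65 ± 0.70; edgeR adjusted p = 0.214).

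Over all genes, 1.45% of 8908 tested were called lower at ZT18 than at ZT6, and 1 of the 9 members tested was. The pattern of both ZT18 libraries lying below the other 8 was seen in 7.44% of genes and in 3 of these 9 members. The median log2 fold change of the members was -0.02, against -0.01 over all genes. Pseudogene and Mup entries were higher in both ZT18 libraries, and the mitochondrial share was above that of ZT6, as given above. The erythroid list summed to 361 CPM in ZT18B, whereas its 99.03 CPM in ZT18A lay within the 72.2 to 108 of the other 8. The part of these measures in the ZT18 values was not tested beyond the fits named here. In ZT18B most of the erythroid sum came from the haemoglobin genes Hba-a1, Hba-a2, Hbb-bs and Hbb-bt (61.2, 60.4, 142 and 29.6 CPM). Alas2, also on that list, was 67.4 CPM there. It was 71.5 to 107 CPM in the other libraries and made up most of their sums. When the cells of all libraries were put in 1 order and split into 3 equal parts, the share of cells in the pericentral part was 23.8% and 29.0% at ZT18 and 30.5% and 39.1% at ZT6. In the cells of that pericentral part alone, the Cyp4a10 log2 fold change was -1.36 (edgeR adjusted p = 0.123), and in those of the periportal part it was -1.61 (0.280). With pseudogene and Mup entries left out of the fit on all cells, it was -1.88 (edgeR adjusted p = 0.0336). That fit left the counts of Cyp4a10 unchanged, so it could not test a change in Cyp4a10 tied to these entries.

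The 24-h rhythm test fitted a cosine and a sine over the 4 times and called 458 of 8908 genes, or 5.14%. It called 0 of 9 members by edgeR, and DESeq2 and limma-voom called 0 each. At an unadjusted p under 0.05 there were 2 members, Cyp4a10 (edgeR adjusted p = 0.212) and Cyp4a31 (edgeR adjusted p = 0.228). The fitted amplitude of Cyp4a10, the log2 distance from its mean to its peak, was 0.95 with a peak at ZT 6.85, and it was 0.22 without both ZT18 libraries. Cyp4a14 had an amplitude of 1.27, a peak at ZT 6.90 and an edgeR adjusted p of 0.370. The amplitudes of the other members were 0.04 (Cyp4a12a) to 0.86 (Cyp4a31), beside a median of 0.25 over all genes.

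**Figure D1:**
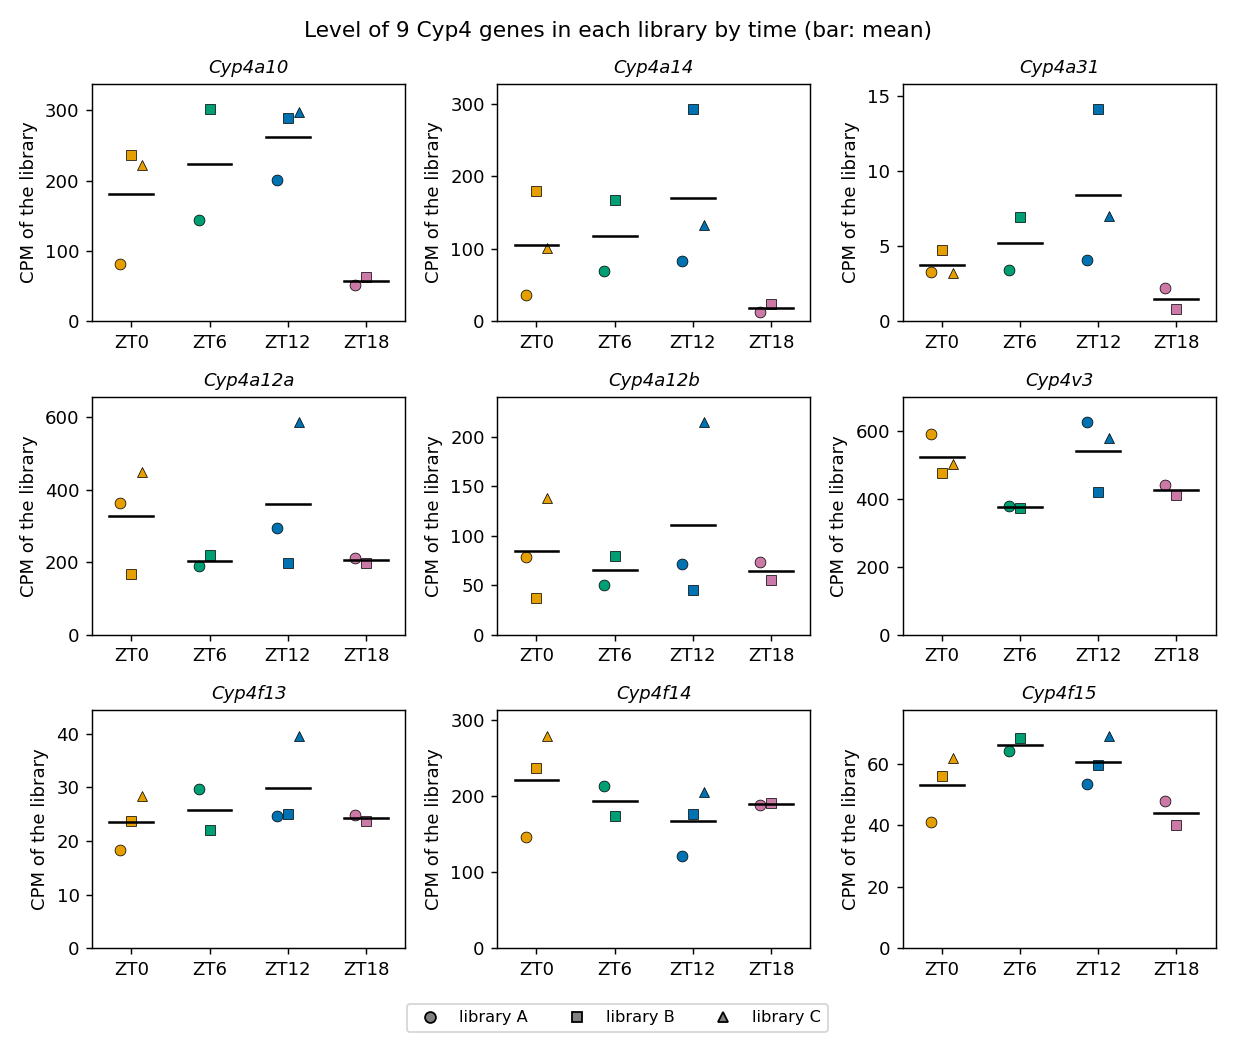
CPM of 9 Cyp4 genes (y axis, from 0) in each library by Zeitgeber time (x axis); symbols mark the library's letter and bars the mean of a time. Cyp4a10, Cyp4a14 and Cyp4a31 were lowest in both ZT18 libraries, and Cyp4a12a and Cyp4a12b were highest in ZT12C.

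Between ZT12 and ZT0, the pair of opposite times with 3 libraries each, no member was called, against 3.44% of all genes. DESeq2 and limma-voom called 0 members each. The 2 members with an unadjusted p under 0.05 were Cyp4a31 and Cyp4f14. Cyp4f14, a leukotriene hydroxylase, measured 146, 237 and 279.6 CPM in ZT0A, B and C and 122, 176 and 205 in ZT12A, B and C. It was lower at ZT12 within each letter, although the groups overlapped, with a log2 fold change of -0.53 ± 0.23 (edgeR adjusted p = 0.280). The letters A, B and C of these times have the index plate columns 3, 7 and 5. With the index column as a block, which compares within columns, Cyp4f14 was called (log2 fold change -0.52, edgeR adjusted p = 0.0278), while the calls over all genes went from 306 to 767. With the letter as replicate block over all libraries it was not called (edgeR adjusted p = 0.149). Cyp4a31 had a log2 fold change of 1.21 ± 0.42 (edgeR adjusted p = 0.164), and 0.39 without ZT12B. In cells with at least 3000 UMIs it was called at 1.85 (edgeR adjusted p = 0.0373). Such cells numbered 953 in ZT12B, 88 in ZT12A and 44 in ZT12C. With library size alone the median of all genes shifted to 0.13 and the share of calls higher at ZT12 from 50.7% to 66.7%.

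The libraries of ZT0 and of ZT12 were widely spread for the male-biased pair. Cyp4a12a, which makes 20-hydroxy-arachidonic acid, measured 364, 169 and 449.7 CPM at ZT0, 189 and 220.2 at ZT6, 296, 199 and 586 at ZT12, and 213 and 198 at ZT18. Libraries C of ZT0 and ZT12 were the highest; the libraries B of the same times were among the lowest. Cyp4a12b measured 78.9, 36.7 and 138 CPM at ZT0, 49.98 and 79.97 at ZT6, 71.5, 45.2 and 214 at ZT12, and 73.6 and 55.8 at ZT18. Its order of libraries matched that of Cyp4a12a at ZT0, ZT6, ZT12 and ZT18. Cells of each library were also put in an order of their own and split into 3 equal parts. In the pericentral part, Cyp4a12a measured 484, 257 and 726 CPM in ZT0A, B and C and 542, 322 and 866 in ZT12A, B and C. In the periportal part it measured 279, 121 and 195 CPM at ZT0 and 165, 126 and 399 at ZT12. In the common order, the pericentral part held 30.4%, 24.5% and 56.4% of cells in ZT0A, B and C. It held 45.8%, 27.2% and 49.3% in ZT12A, B and C. ZT0C and ZT12C had the highest 2 shares of the 10 libraries. The part of these shares in the spread between libraries was not tested. The log2 fold change of Cyp4a12a between ZT12 and ZT0 was -0.04 ± 0.36 in all cells (edgeR adjusted p = 0.978), 0.01 in pericentral cells alone and 0.08 in periportal cells alone (edgeR adjusted p = 0.993 and 0.955).

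Cyp4v3, Cyp4f13 and Cyp4f15 were called in no comparison of times. Cyp4v3 averaged 524 ± 60.5 CPM over the 3 ZT0 libraries (SD), 378 ± 3.94 over the 2 of ZT6, 542 ± 108 over the 3 of ZT12 and 427 ± 19.5 over the 2 of ZT18. Cyp4f15 measured 53.06 ± 10.7, 66.3 ± 2.96, 60.8 ± 7.90 and 44.1 ± 5.62 CPM at the same times, and its log2 fold change of ZT18 over ZT6 was -0.51 ± 0.22 (edgeR adjusted p = 0.216). Cyp4f13 was between 18.3 CPM in ZT0A and 39.7 in ZT12C, with group means of 23.5 to 29.8 CPM.

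The next comparison asked how the members are placed along the lobule, between the central and the portal vein. Landmark genes that include no Cyp4 gene set the order of a library's cells. The first and the last of 3 equal parts of that order are called the pericentral and periportal zones. Position split the family: Cyp4a10, Cyp4a14, Cyp4a12a and Cyp4a12b were higher in the pericentral zone, Cyp4v3 was higher in the periportal zone, and the 3 Cyp4f genes did not pass the test. Cyp4a10 and Cyp4a14 had the steepest differences, 6.86-fold and 5.59-fold. Of 9 members tested, 4 were called higher pericentral and 1 higher periportal, against 12.7% and 11.9% of 8907 genes. The median log2 difference, periportal minus pericentral, was -0.72 over the members and -0.01 over all genes. DESeq2 and limma-voom called 5 members each. With library size alone, 27.8% of all calls were periportal against 48.3% with TMM factors and the median of all genes was -0.11, and these 5 calls and their directions held there as well.

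Cyp4a10 measured 141 to 669 CPM in the pericentral zone (median 453) and 8.53 to 128 in the periportal zone (median 37.8). The zones overlapped in no library and not across libraries either, since the highest periportal value was below the lowest pericentral one. Its log2 difference was -2.78 ± 0.14 (SE; edgeR adjusted p = 1.0e-17), negative in 10 of 10 libraries. Cyp4a14 measured 33.6 to 512 CPM in the pericentral zone (median 198) and 4.27 to 142 in the periportal zone (median 18.7). Its pericentral value was above its periportal one in each of the 10 libraries, with a log2 difference of -2.48 ± 0.13 (edgeR adjusted p = 1.2e-16). Being higher in the pericentral zone in all 10 libraries was seen in 8.34% of genes and in 4 of the 9 members.

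The male-biased pair had shallower differences. Cyp4a12a measured 257 to 866 CPM in the pericentral zone (median 345) and 102 to 399 in the periportal zone (median 164), a log2 difference of -1.16 ± 0.09 (edgeR adjusted p = 2.8e-12). Cyp4a12b measured 69.6 to 374 and 18.3 to 140.2 CPM (medians 106 and 39.2), a log2 difference of -1.43 ± 0.14 (edgeR adjusted p = 3.5e-10). Both were higher in the pericentral zone in 10 of 10 libraries. Summed as 1 gene, the pair was still called. Cyp4a31 measured 1.71 to 20.7 CPM pericentrally and 0 to 11.1 periportally, on 104 and 61 UMIs in all. It was higher pericentral in 7 of 10 libraries, with a log2 difference of -0.72 ± 0.31 (edgeR adjusted p = 0.0908, 0.0178 to 0.532 over the alternatives). Cyp4a31 was called without ZT0B (edgeR adjusted p = 0.0178), with even-numbered landmarks (0.0185) and with no filter on low counts (0.023). It was also called with library size alone (0.0419) and with 1 order over all libraries (0.0466).

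Cyp4v3 was the exception in direction. It measured 321 to 564 CPM in the pericentral zone (median 387) and 425 to 735 in the periportal zone (median 527). The periportal value was the higher in 10 of 10 libraries, with a log2 difference of 0.52 ± 0.06 (edgeR adjusted p = 1.9e-08), or 1.43-fold. The Cyp4f genes were close to level: Cyp4f14 measured 203 ± 50.3 and 177 ± 40.8 CPM in the pericentral and periportal zones (SD, n = 10), with a log2 difference of -0.09 ± 0.07 (edgeR adjusted p = 0.387). With library size alone Cyp4f14 was called at -0.19 (adjusted p = 0.0334), beside the median gene's -0.11. Cyp4f15 had a log2 difference of -0.07 ± 0.08 (adjusted p = 0.608), and Cyp4f13 one of 0.17 ± 0.13 (adjusted p = 0.390). Cyp4f14 and Cyp4f15 were each higher in the pericentral zone in 9 of 10 libraries in CPM, Cyp4f13 in 5.

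**Figure D2:**
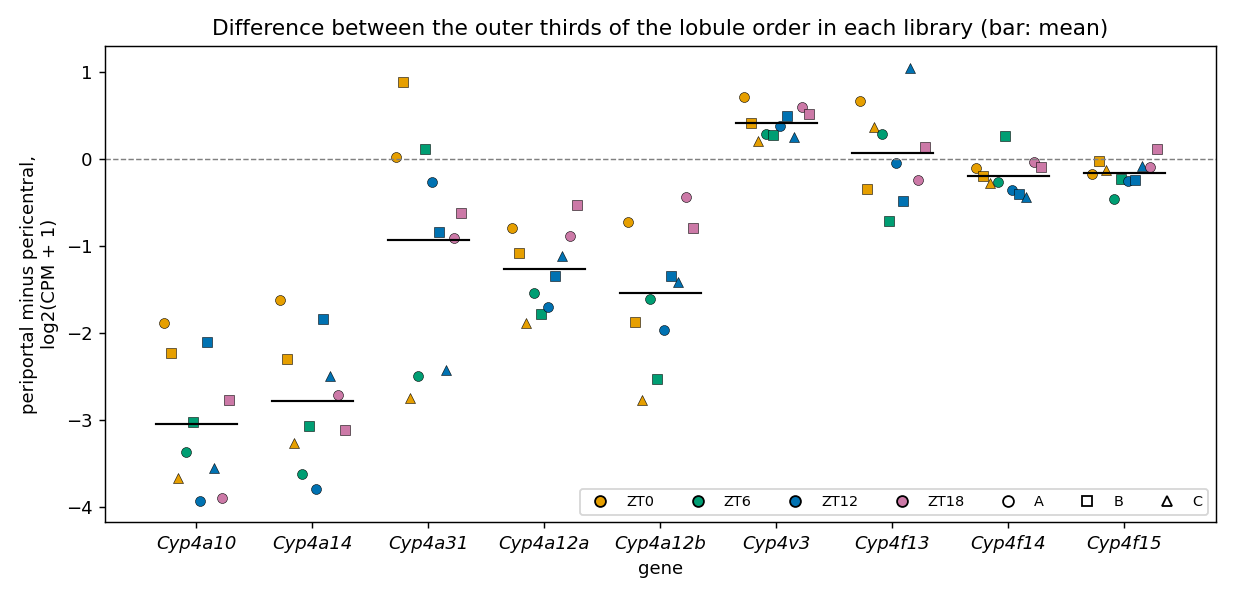
Periportal minus pericentral log2(CPM + 1) (y axis) for 9 Cyp4 genes (x axis), 1 point per library, coloured by time and shaped by letter, with the mean as a bar. All 10 points of Cyp4a10, Cyp4a14, Cyp4a12a and Cyp4a12b lie below 0 and all 10 points of Cyp4v3 above it.

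Cells were also split into 8 equal layers to show the shape of each gradient, as a description. Layer 1 is the most pericentral part of each library's own order. Mean Cyp4a10 was 557 ± 249 CPM in layer 1 (SD, n = 10), 350 ± 212 in layer 2, 144 ± 96.3 in layer 4 and 49.6 ± 38.3 in layer 8. Layers 6 to 8 differed little, at 62.4, 51.1 and 49.6 CPM, so most of the decline lay between layers 1 and 5. Cyp4a14 followed the same course, from 279 ± 192 CPM in layer 1 to 92.3 ± 85.1 in layer 4 and 32.8 ± 45.1 in layer 8. Cyp4a12a went from 555 ± 242 to 262 ± 155 and 186 ± 99.7 CPM in these layers. Cyp4a12b dropped faster at first, from 224 ± 124 CPM in layer 1 to 121 ± 99.7 in layer 2, and was 40.8 to 52.6 CPM from layer 5 on. Cyp4v3 was lowest in layer 3, at 388 ± 71.9 CPM, not in layer 1 (456 ± 104), and highest in layer 8 (598 ± 110.4). Layers 1 and 2 held 61.1% ± 7.65 of the summed layer CPM of Cyp4a10, 56.4% ± 9.51 for Cyp4a14, 51.8% ± 9.79 for Cyp4a12b, 41.8% ± 4.65 for Cyp4a12a, 26.7% ± 1.80 for Cyp4f14 and 22.4% ± 2.55 for Cyp4v3, where a level profile would give 25%.

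**Figure D3:**
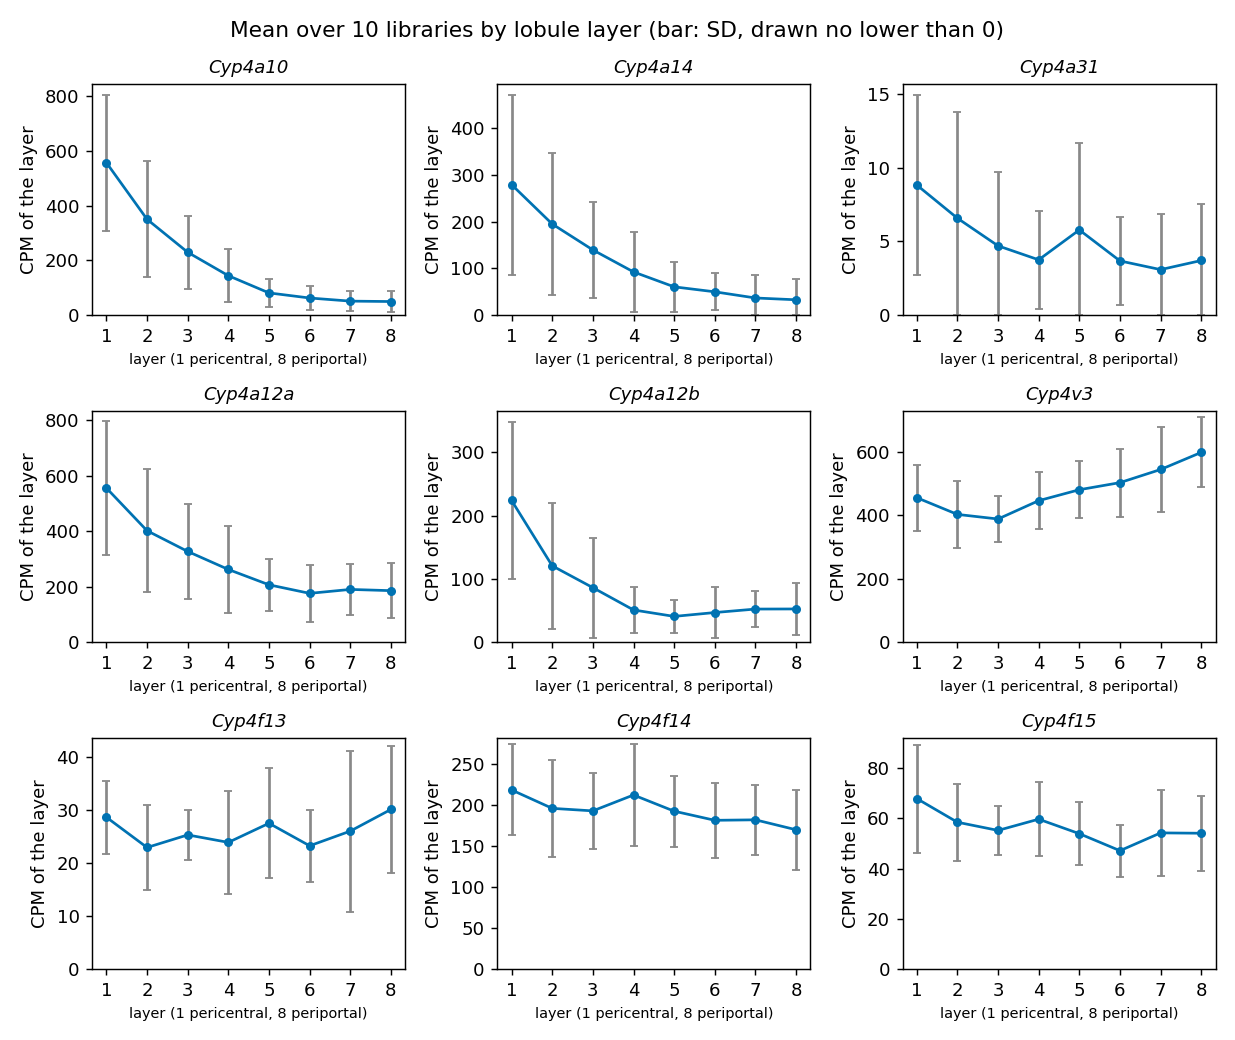
Mean CPM over 10 libraries (y axis, from 0) in 8 lobule layers (x axis, 1 pericentral to 8 periportal) for 9 Cyp4 genes; bars are SDs over libraries. Cyp4a10 declines from 557 CPM in layer 1 to 49.6 in layer 8, Cyp4v3 is highest in layer 8, and Cyp4f13, Cyp4f14 and Cyp4f15 stay close to level.

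Whether the zone difference itself changes with time was asked with a test of zone by time of day. As fitted here, no member was called by edgeR, DESeq2 or limma-voom, beside 3 of 8907 genes, or 0.0337%, by edgeR. Some alternatives called Cyp4a12a or Cyp4a12b, as given below. The gradient of Cyp4a10 was present at each time: its zone difference in log2(CPM + 1) averaged -2.60 ± 0.94 in the ZT0 libraries (SD), -3.20 ± 0.24 in those of ZT6, -3.20 ± 0.97 in those of ZT12 and -3.34 ± 0.80 in those of ZT18. In layer 1 it measured 498 ± 237, 615 ± 203, 795 ± 15.8 and 229 ± 29.4 CPM at these times, and in layer 8 48.6 ± 30.9, 52.4 ± 33.5, 72.8 ± 54.1 and 13.2 ± 6.27. Both ends of the order were thus lowest at ZT18 in the means. Cyp4a12a and Cyp4a12b had the smallest unadjusted p among the members and were the 2 members under 0.05 (edgeR adjusted p = 0.499 and 0.518). The Cyp4a12b difference averaged -1.79 ± 1.03 for ZT0, -2.07 ± 0.65 for ZT6, -1.58 ± 0.35 for ZT12 and -0.62 ± 0.25 for ZT18, and that of Cyp4a12a was -1.25 ± 0.57, -1.67 ± 0.17, -1.39 ± 0.30 and -0.71 ± 0.26. The ZT18 values overlapped those of ZT0 for both. Both were called without ZT0C (edgeR adjusted p = 0.0154 for Cyp4a12a and 0.0242 for Cyp4a12b) and with no filter on low counts (0.0493 and 0.00102). With zone by letter as replicate block, Cyp4a12b was called (edgeR adjusted p = 0.0479). The calls over all genes also rose in these fits, to 36 without ZT0C, 42 with no filter on low counts and 32 with zone by letter as replicate block. Zones and layers are equal parts of each library's own order. In the common order, the pericentral part held 23.8% and 29.0% of cells in ZT18A and ZT18B and 56.4% in ZT0C. The same zone or layer may therefore stand for different positions in different libraries. With 1 order over all libraries no member was called, and the part of this in the differences was not tested further.

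**Figure D4:**
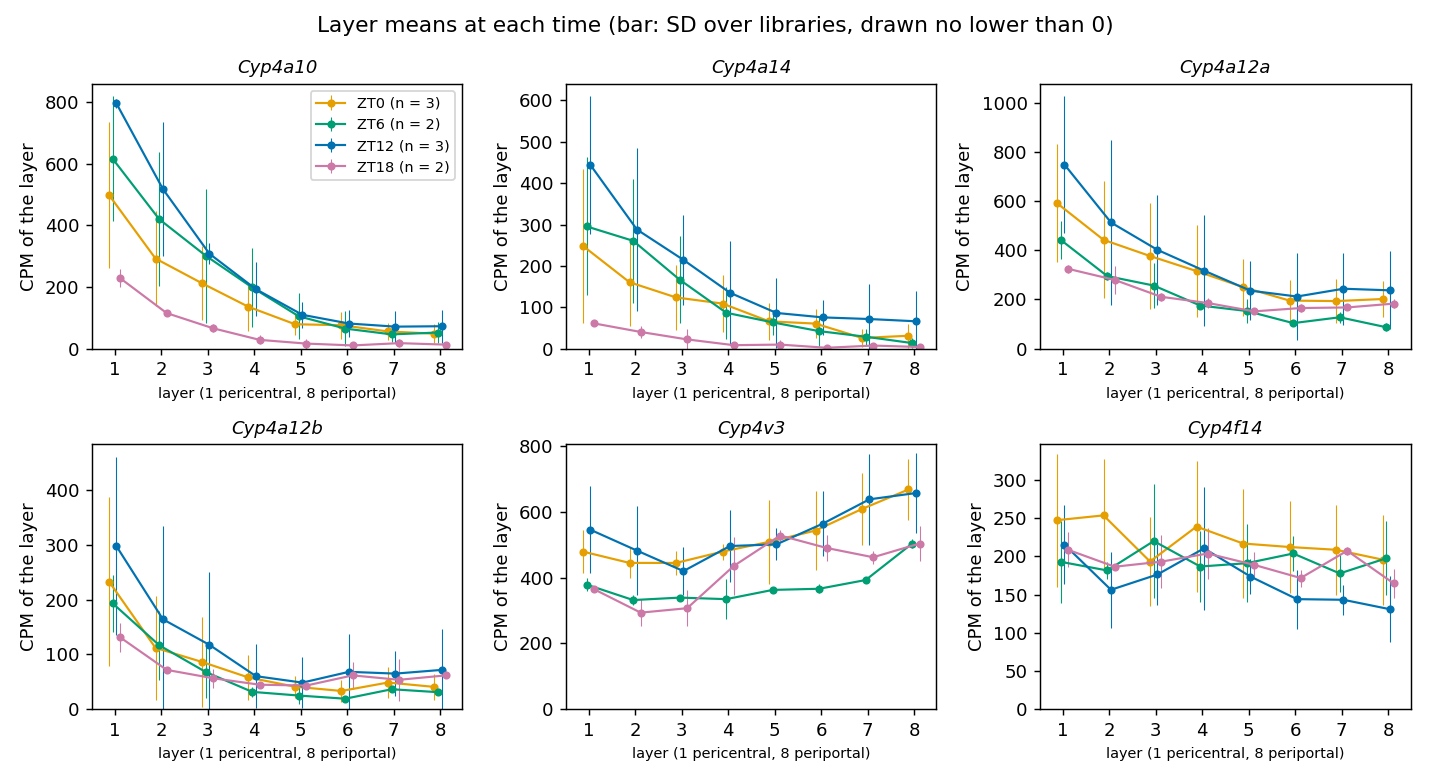
Mean CPM (y axis, from 0) by lobule layer (x axis, 1 pericentral to 8 periportal) at ZT0, ZT6, ZT12 and ZT18 for 6 Cyp4 genes; bars are SDs over the 2 or 3 libraries of a time. The Cyp4a10 gradient is present at all 4 times, with layer 1 at 229 CPM at ZT18 and 795 CPM at ZT12.

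Pairs of neighbouring genes were compared by their shares of UMIs, which do not depend on the library scaling. Of the UMIs of Cyp4a12a and Cyp4a12b together, Cyp4a12b took 17.8% to 26.8% in a library (median 21.5%). The share was 24.5% ± 4.34 pericentrally and 21.01% ± 4.89 periportally (SD, n = 10), higher pericentral in 8 of 10 libraries (exact sign-flip permutation test over libraries, two-sided, p = 0.0723, Benjamini-Hochberg adjusted over 2 such tests 0.145). Cyp4a14 took 20.2% to 50.3% of the UMIs of Cyp4a10 and Cyp4a14 (median 31.1%), with 32.1% ± 8.11 pericentrally and 35.4% ± 8.91 periportally (exact permutation p = 0.229, adjusted 0.229). Neither share was shown to differ between zones. The zone-wise levels of Cyp4a10 and Cyp4a14 correlated with r = 0.96 over 30 sums, 3 zones of each of 10 libraries, and those of Cyp4a12a and Cyp4a12b with r = 0.92. Across the 2 pairs r was 0.34 to 0.57. The sums of a library share their cells' preparation and depth, and the zones share the gradient, so these values describe likeness only.

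Genes that the PPAR-alpha pathway is known to control were listed beside the members, and 31 of 35 were tested after leaving out the members themselves. Most were higher in the pericentral zone: 21 were called pericentral and 1 periportal (Creb3l3), beside 12.7% and 11.9% of all genes. The median log2 difference was -0.38 against -0.01 over all genes. The largest were Aldh3a2, fatty aldehyde dehydrogenase, at 256 ± 77.7 CPM pericentrally and 7.91 ± 4.17 periportally (-4.85 ± 0.11, SE), and the acyl-CoA thioesterases Acot1 (-3.39 ± 0.16), Acot2 (-2.30 ± 0.28) and Acot3 (-1.99 ± 0.34). By time, 1 was called between ZT18 and ZT6, the peroxisomal enzyme Ehhadh, which was higher at ZT18 (66.4 ± 14.7 CPM at ZT6 and 172 ± 27.8 at ZT18; log2 fold change 1.45 ± 0.34, edgeR adjusted p = 0.0337), beside 2.35% of all genes. Without any 1 of the ZT18 or ZT6 libraries no gene of the list was called. The rhythm test called 5, beside 5.14% of all genes, among them Cpt1a, which imports fatty acids into mitochondria (peak at ZT 10.6), Eci2 (9.90), Acot3 (10.1) and Ehhadh (19.6). It called 3 without ZT18A and 2 in cells with at least 3000 UMIs. Between ZT12 and ZT0, Acot3, Cpt1a and Eci2 were higher and Plin2, a lipid droplet protein, was lower.

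The partners of omega-oxidation were tested for 19 genes in time and 18 by zone, since Aldh1a1 served as a landmark. By zone 9 were called and all 9 were pericentral, beside 12.7% of all genes, with a median log2 difference of -0.31. They were led by Aldh3a2, Por (268 ± 208 CPM pericentral and 114 ± 94.9 periportal; -1.14 ± 0.08), Cyb5a (-0.86 ± 0.07) and Acsm3 (-0.74 ± 0.09). By time, Por was called between ZT12 and ZT0 (67.2 ± 28.6 CPM at ZT0 and 383 ± 133 at ZT12; log2 fold change 2.37 ± 0.30, edgeR adjusted p = 5.2e-04) and in the rhythm test, where its peak was at ZT 11.5. The rhythm test called 2 of the 19, Por and Ehhadh, beside 5.14% of all genes, and 1 without ZT18A, ZT18B, ZT6A or ZT6B. Ehhadh was also the 1 partner called between ZT18 and ZT6, and none was called there without any 1 of these libraries. Between ZT12 and ZT0 the count was 2 without ZT0C.

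Regulators of Cyp4 genes were tested for 23 of 24 listed. The rhythm test called 8, led by Nr1d1 (peak at ZT 7.03), Dbp (9.46), Nr1d2 (10.2) and Ppard (21.7), and 7 differed between ZT12 and ZT0, 6 of them higher at ZT12. Over all genes, these tests called 5.14% and 3.44%, and 1.45% were called lower and 2.35% higher at ZT18 than at ZT6. Between ZT18 and ZT6, 4 were lower and 1 higher, and these 5 calls became 3 without ZT18A, ZT6A or ZT6B and 2 without ZT18B. The higher gene was Ppard, a PPAR of many tissues, at 1.99 ± 0.631 CPM at ZT6 and 8.31 ± 0.699 at ZT18. The largest change was the drop of Nr1d1, from 32.2 ± 10.5 CPM at ZT6 to 0.292 ± 0.0318 at ZT18. Also lower were the clock output factor Dbp (119 ± 12.2 and 8.24 ± 0.540 CPM) and the repressor Nr1d2 (58.7 ± 1.69 and 18.5 ± 3.24 CPM). The remaining lower gene, Nr1i3, named outside the rule on size, was 88.7 ± 10.6 and 34.6 ± 2.13 CPM. By zone 5 were called pericentral and 3 periportal, beside 12.7% and 11.9% of all genes. Pparg (-3.89 ± 0.33) and the receptor CAR, Nr1i3 (-1.83 ± 0.09), were pericentral, and the coactivator Ppargc1a (1.73 ± 0.16) and Esrra (1.06 ± 0.12) periportal. Pparg was low, at 10.8 ± 3.30 CPM pericentrally and 0.584 ± 0.665 periportally (SD), the latter near the limit of detection. Ppara itself, named outside the rule on size, was called pericentral at -0.44 (edgeR adjusted p = 0.0043) and was not called in any time test.

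Other male-biased genes of the liver did not share 1 zone. Of 14 tested, 12 were called by zone, 7 pericentral like Cyp4a12a and Cyp4a12b and 5 periportal. Over all genes 12.7% were called pericentral and 11.9% periportal. Elovl3, a fatty acid elongase (-2.12 ± 0.14), and the oxysterol hydroxylase Cyp7b1 (-1.41 ± 0.16) were pericentral, and Ugt2b38 (2.70 ± 0.16) and the urinary protein Mup20 (1.77 ± 0.10) periportal. The rhythm test called 1, Elovl3, with a peak at ZT 23.7, beside 5.14% of all genes. It called 5 with the letter as replicate block, 4 without ZT12C and 2 without ZT0A, ZT0C or ZT12B. Cyp7b1 was called by edgeR in the test of zone by time, where DESeq2 and limma-voom called 0 of the list; edgeR also called 0 without ZT12B, ZT18A, ZT18B or ZT6B and 2 without ZT0B. Of 14 listed female-biased genes 4 were tested, and 2 were called higher at ZT18 than at ZT6, beside 2.35% of all genes. These were Cyp3a41b (1.61 ± 1.18 CPM at ZT6 and 22.9 ± 5.78 at ZT18) and Cyp3a44 (1.21 ± 1.16 and 19.0 ± 10.5). Only 1 was called without ZT18A, and none without ZT6A or without ZT6B. They are close copies of other Cyp3a genes, so how shared reads were counted could change these values. By zone, Cyp2c69 (-3.55 ± 0.15, SE), Cyp3a44 (-1.31 ± 0.27) and Cyp3a41b (-1.26 ± 0.26) were called, all pericentral, beside 12.7% of all genes. The rhythm test called Cyp3a41b and Cyp3a44, and 0 of the list without both ZT18 libraries. Cyp2a4 was called by edgeR in the test of zone by time (adjusted p = 0.0176), where DESeq2 and limma-voom called 0 of the list.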

How the data were processed

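UMI counts per gene and cell were deposited by the authors for 10 libraries made with the 10x Chromium 3′ version 2 kit, per the labels' protocols. The submitters' processing notes name Cell Ranger and the builds hg19 and mm10, without roles. The cell filter, the treatment of doublets and of reads matching several genes are not given in the sources used here. All 18378 cells had 1000 UMIs or more and 35% mitochondrial UMIs or less, so none was left out, and no doublet caller was run. Counts were summed per library, or per library and zone, and tested with edgeR 4.0.16 (TMM, quasi-likelihood F-test, R 4.3.3) on genes averaging 3 CPM or more, with Benjamini-Hochberg adjustment over all genes and a threshold of 0.05. DESeq2 1.42.0 and limma 3.58.1 (voom) were alternatives. Time effects were fitted over all libraries, and zones with the library as a block. Zones came from a score of 8 periportal minus 8 pericentral landmarks, which were left out of counts of calls. Standard errors were derived from the effect and its F. The scripts were tested on simulated data.

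Letters pair ZT0 with ZT12: deviations of same-letter libraries from their time means correlated with r = 0.24, 0.43 and 0.48, and they share index columns. For ZT6 and ZT18 r was 0.03. The members and gene lists were chosen with earlier results of these data known. All members were named, and of each list up to 4 called genes with the largest effects. Comparisons of a member's likeness to other genes used log2(CPM + 1), that is a pseudocount of 1. Depth was 1454623 to 7144803 UMIs per library, and 3 counts are 0.420 to 2.06 CPM. With 6 h between times, short pulses and 24-h waves cannot be told apart.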

Additional observations from a re-analysis of the deposited data

How the results depend on the processing

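The 5 zone calls held in every alternative run, with the same direction. When close copies were summed 4 were counted, since Cyp4a12a and Cyp4a12b then make 1 gene. With library size alone 7 were counted, and Cyp4a31 was also called in the other alternatives named for it above. The rhythm test called 0 members in every alternative. Between ZT12 and ZT0, 1 member was called with the index plate column as a block and 1 in cells with at least 3000 UMIs. Between ZT18 and ZT6, 2 members were called with library size alone and 2 with no filter on low counts, 0 in pericentral cells only and 0 in periportal cells only, and 0 to 2 with each library left out. Where that leaves 1 library at a time, it is assumed to vary like those of other times. The fits on cells of 1 zone and without mitochondrial entries were chosen after seeing the data. With the letter as a replicate block 2 members were called between ZT18 and ZT6, where the letters share only a letter, and with the zone by letter as a replicate block 1 member, Cyp4a12b, had a zone-dependent rhythm; the replicate block changed no other count. The zone-dependent rhythm called 2 members with no filter on low counts and 0 to 2 with each library left out. The fit of ZT18 against ZT6 with the index column as a block could not be run, because ZT18 shares no column with another time.

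Changes of sign were seen between times among values that were not called. Between ZT12 and ZT0 (log2 fold change), Cyp4a12a was 0.017 with close copies summed, 0.136 with library size alone, 0.014 in pericentral cells, 0.078 in periportal cells, 0.0035 without the 5% of cells with the most UMIs and -0.51 to 0.22 with each library left out. Cyp4a12b was -0.47 in cells with at least 3000 UMIs and -0.65 to 0.66 with libraries left out, Cyp4a14 was -0.13 to 1.24, Cyp4f15 -0.041 to 0.13 and Cyp4v3 -0.26 to 0.054. Cyp4f13 was -0.020 in periportal cells, Cyp4f15 -0.021 without the 5% of cells with the most UMIs and Cyp4v3 0.048 with library size alone. Between ZT18 and ZT6, Cyp4a12a was -0.26 in cells with at least 3000 UMIs, -0.086 in pericentral cells and -0.081 to 0.25 with libraries left out. Cyp4a12b was -0.28 in pericentral cells and -0.29 to 0.49 with libraries left out, Cyp4f13 was -0.16 to 0.16 and Cyp4f14 -0.047 to 0.15. Cyp4f14 was -0.033 with library size alone and -0.012 in periportal cells, and Cyp4v3 was -0.018 in pericentral cells. The cause was not tested.

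Over all genes, calls between ZT18 and ZT6 ranged from 50 without ZT6A to 730 with the letter as a replicate block (338 as reported), rhythm calls from 228 without ZT18A to 792 with DESeq2 (458), calls between ZT12 and ZT0 from 187 in cells with at least 3000 UMIs to 767 with that column as a block (306), and zone calls from 641 with no replicate block to 2525 with library size alone (2194). With no replicate block, zone calls were 11 of the PPAR-alpha targets (22 as reported), 6 of the male-biased genes (12) and 4 of the regulators (8); with that column as a block, 9 targets (4) and 11 regulators (7) were called between ZT12 and ZT0. Calls of a zone-dependent rhythm over all genes ranged from 0 with DESeq2 to 42 with no filter on low counts (3 as reported). Depth limits Cyp4a31 and Cyp4a32 most.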

Other observations

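The other 6 rows whose symbols begin with Cyp4 were near the limit of detection in these hepatocytes. Cyp4f16, a relative of the leukotriene hydroxylases, had 51 UMIs in the 10 libraries together (1.10 ± 0.466 CPM, SD). Cyp4x1, Cyp4f17, Cyp4b1 and Cyp4f40 had 19, 17, 16 and 6 UMIs. Cyp4f18, which is known from neutrophils, had 0 UMIs, which allows a level of up to 0.0692 CPM of all UMIs, for counting error only. In all, 534 entries had no UMI, and the sources used here do not say why. The bound holds only if the 0 of Cyp4f18 is a count.

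For each of the 8 members with a mean of at least 20 CPM, the genes with the most similar course over the 30 sums of zone and library were looked up among 4319 genes. Closest to Cyp4a10 were Pebp1 (r = 0.90), 1810058I24Rik (0.88) and Gstm6 (0.88), and closest to Cyp4a14 were Cyp2c40 (0.84), Map1lc3a (0.84) and Gabarap (0.84). For Cyp4a12a they were Rarres1 (0.91), Akr1c20 (0.90) and Hprt (0.89), and for Cyp4a12b they were Glul (0.84), Rarres1 (0.84) and Psmd14 (0.83). Glul, glutamine synthetase, marks the hepatocytes at the central vein. For Cyp4v3 they were Pgam1 (0.88), Degs1 (0.79) and Spin1 (0.77), for Cyp4f14 Nr2f6 (0.82), Jund (0.81) and Rpl6 (0.80), for Cyp4f15 Mocs1 (0.85), Slc4a4 (0.83) and Prpf19 (0.82), and for Cyp4f13 Prrc2c (0.74), Rangap1 (0.69) and Ywhab (0.68). The sums of a library share its depth and cells, and these values are descriptions.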
